A study of Danio rerio with 12 samples.

Results

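The comparison described here set 6 attentive zebrafish against 6 other zebrafish, which together make up all 12 fish of the series. Each fish gave 1 array of whole-brain RNA, and all were adult wild-type males of the AB line, 11 months old, killed after 30 min of test that followed a night of isolation. The attentive side held 3 bystanders that watched a fighting pair of males (BIC) and 3 that watched a pair of males kept from interacting (BANIC). The other side held 3 bystanders that paid no attention to a non-interacting pair (BINIC) and 3 fish that saw no conspecific (ISOL). The members were taken by these labels alone, with 1 term for each group and a contrast of the mean of the BIC and BANIC means with the mean of the BINIC and ISOL means. Stimulus fish were seen but not touched or smelled, through a one-way mirror.

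Attention was scored by the study from the time spent near the stimulus and the direction the fish faced, and the sampled fish were chosen by that behavior. Attention was therefore observed and not assigned. A fight was seen on the attentive side only and isolation occurred on the other side only, so in the whole contrast attention, fighting and company cannot be told apart. BANIC and BINIC fish saw the same kind of stimulus, and their difference is given separately. Whole-brain RNA does not separate a change in RNA per cell from a change in the number of cells of a type.

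Immediate early genes are transcribed within minutes of strong synaptic input, from factors already present in the neuron, after calcium entry and MAP kinase signaling. Many code for transcription factors. Fos and Jun proteins pair to form AP-1, Egr proteins are zinc-finger factors, Npas4 is a neuron-restricted factor that answers to calcium entry, and Nr4a proteins are orphan nuclear receptors. Others, such as the dual-specificity phosphatases, act as brakes that switch the kinase signal off again. The transcripts are widely used in vertebrate brains as markers of recent neuronal activity.

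The values were log2 levels after RMA for 20871 annotated probe sets. Array medians over these probe sets ranged from 5.62 to 5.68. Neuronal markers averaged 8.82 to 8.89 in attentive fish and 8.80 to 8.88 in other fish over 19 genes, so the labelled tissue carried its neuronal markers. Whole profiles did not sort by side: the closest array was on the opposite side for 6 of the 12 arrays, namely BIC1 (replicate 1 of the BIC group, and likewise below) and 5 of the 6 other fish. ISOL2 had the lowest mean correlation with its own group (0.989). BANIC3 stood apart in skeletal muscle markers.

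Attentive fish had more RNA of a small set of immediate early genes than the other fish. At a false discovery rate (FDR) under 0.05, 7 probe sets differed (0.0335% of those tested), of which 6 were higher in attentive fish (0.0287%) and 1 was lower (0.00479%). The 6 that were higher were npas4a, fosab, nr4a1, egr4, btg2 and egr2a, and the 1 that was lower was ces2b. All 6 lay 1.64-fold to 3.52-fold higher in attentive fish, and in each of the 7 genes the 6 attentive fish did not overlap the 6 others. The 7 were called on these same fish, so that gap is a description and no further support. Over all probe sets, 0.201% lay higher and 0.211% lay lower without overlap. A log2 difference of at least 1 was reached by 4 of the 7 (0.0192% of those tested), namely npas4a, fosab, nr4a1 and egr4. The count of calls that reached it was 9 without BIC1, 8 without ISOL2, and 3 without BIC2, ISOL1 or ISOL3. At an unadjusted p under 0.05 there were 1451 probe sets. The number called moved with single arrays: it was 19 without BIC1, 4 without BIC2, 4 without BANIC1 and 3 without ISOL1, and npas4a, fosab and egr4 passed in all 12 of the fits that left out 1 array.

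**Figure D1:**
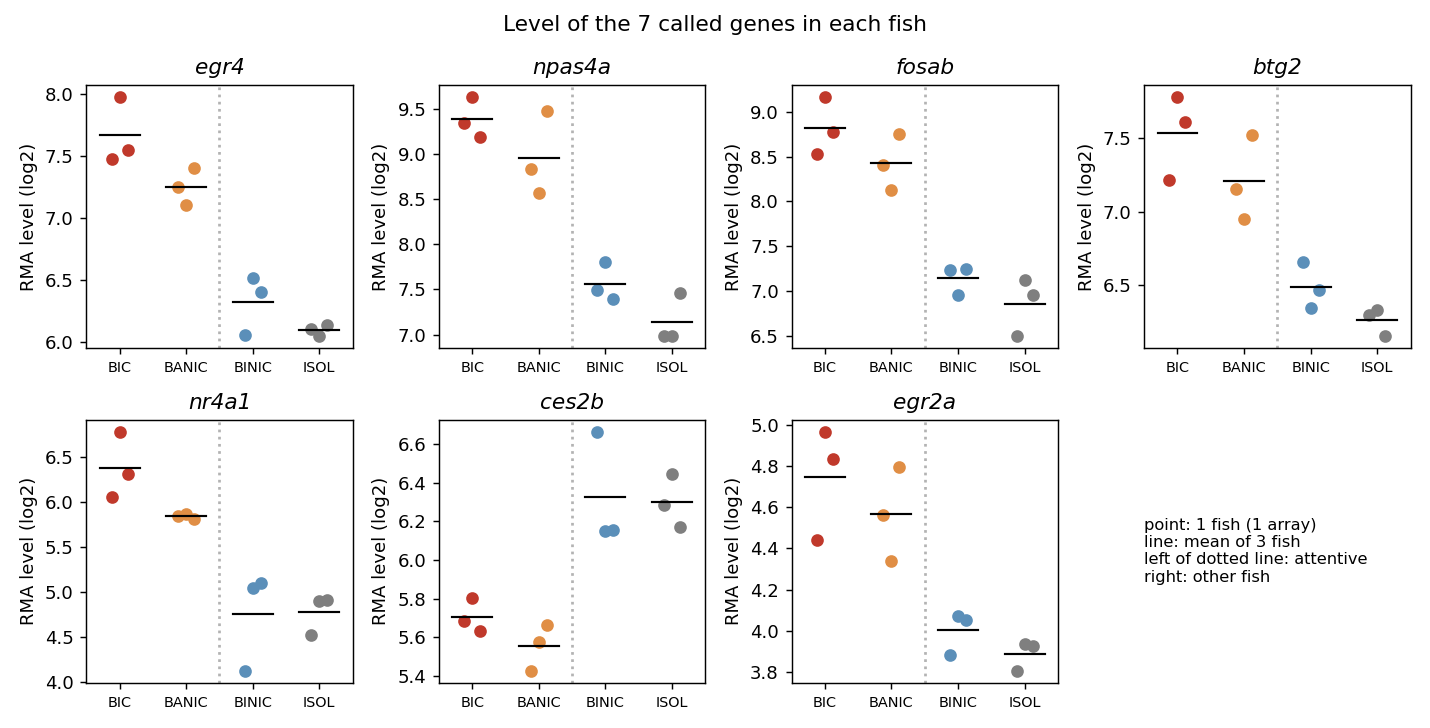
Level (RMA, log2) of the 7 called genes in each of the 12 fish, with BIC and BANIC (attentive) left of the dotted line and BINIC and ISOL (other) right of it. Each point is 1 fish and each line the mean of 3 fish. In all 7 panels the attentive fish lie on one side of the other fish, and ces2b is the panel in which they lie below. The genes were called on these same fish, so the gap is a description and no further support.

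The largest difference among the called genes was in npas4a, which codes for the activity-dependent factor Npas4. Its level was 9.34, 9.63 and 9.19 in the BIC fish, 8.83, 8.56 and 9.47 in the BANIC fish, 7.499, 7.80 and 7.39 in the BINIC fish, and 6.99, 6.98 and 7.46 in the ISOL fish. The lowest attentive fish lay 0.76 above the highest other fish, which was an inattentive bystander. The log2 difference was 1.82 ± 0.15 (SE), or 3.52-fold with a 95% interval of 2.79 to 4.45 (limma, adjusted p = 0.000942).

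Its paralog npas4b just missed the threshold. The BIC fish were at 6.15, 6.72 and 6.58 and the BANIC fish at 7.21, 6.92 and 6.28. Among the others, BINIC fish were at 4.997, 5.27 and 5.68 and ISOL fish at 5.798, 5.81 and 5.70. No fish of one side reached the other, and here the BANIC mean was the highest of the 4 and the BINIC mean the lowest. The study called npas4b from a different probe set, in BIC against ISOL fish only. That probe set is not shown here, so this order of the groups holds for the probe set used. The log2 difference was 1.10 ± 0.16 (SE; adjusted p = 0.0585), which passed without BIC1 (adjusted p = 0.0269) or without BANIC3 (adjusted p = 0.00996). The study tested 1 probe set per gene after a filter on SD. With such a filter, npas4b passed here too (limma, adjusted p = 0.00281).

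The gene fosab, called fos by the study, codes for the Fos subunit of AP-1. Its level in the BIC fish was 8.53, 9.17 and 8.77, and in the BANIC fish 8.41, 8.13 and 8.75. In the BINIC fish it was 7.23, 6.96 and 7.25, and in the ISOL fish 6.50, 7.12 and 6.96. The gap was the widest of the 7 genes at 0.88 between the lowest attentive and the highest other fish. This was a log2 difference of 1.62 ± 0.14 (SE), or 3.08-fold (2.48 to 3.83, adjusted p = 0.000958).

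Among the Egr genes, egr4 was higher in attentive fish, with 7.47, 7.97 and 7.55 in BIC fish and 7.25, 7.11 and 7.40 in BANIC fish. It was 6.06, 6.52 and 6.40 in BINIC fish and 6.11, 6.05 and 6.14 in ISOL fish. The isolated fish lay within 0.1 of each other, and the spread on the attentive side came mainly from BIC2. The log2 difference was 1.245 ± 0.10 (SE), or 2.37-fold (2.03 to 2.76, adjusted p = 0.000942). A second Egr factor, egr2a, was higher too, with 4.44, 4.97 and 4.83 in BIC, 4.56, 4.34 and 4.80 in BANIC, 3.89, 4.07 and 4.06 in BINIC, and 3.81, 3.94 and 3.93 in ISOL fish. Its level was low, with means of 4.66 in attentive and 3.95 in other fish. Its difference of 0.71 ± 0.10 (SE; adjusted p = 0.0377) was lost in 10 of the 12 fits that left out 1 array, the exceptions being those without BIC1 or BANIC2, with adjusted p between 0.00446 and 0.151.

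The orphan receptor gene nr4a1 stood at 6.06, 6.79 and 6.31 in BIC fish and at 5.85, 5.87 and 5.81 in BANIC fish. It was 4.13, 5.05 and 5.11 in BINIC fish and 4.53, 4.90 and 4.92 in ISOL fish. BANIC fish were nearly equal, while BINIC1 lay far below the other inattentive fish. The log2 difference was 1.34 ± 0.17 (SE), or 2.54-fold (1.96 to 3.29, adjusted p = 0.0254). It was lost in 7 of the 12 fits with 1 array left out, namely without BIC2, BIC3, ISOL1, ISOL3 or any BANIC fish (adjusted p up to 0.112).

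Outside these families, btg2, an antiproliferative early response gene, was higher in attentive fish. Levels were 7.22, 7.78 and 7.61 in BIC fish and 7.15, 6.95 and 7.53 in BANIC fish, against 6.66, 6.34 and 6.47 in BINIC fish and 6.29, 6.33 and 6.15 in ISOL fish. Every inattentive bystander was above every isolated fish, but only narrowly, with BINIC2 at 6.344 and ISOL2 at 6.328. These are groups of 3, and how often other probe sets separate in this way was not counted. The difference of the BINIC from the ISOL fish was 0.23 and did not pass (limma, adjusted p = 0.628). The difference between the attentive and the other fish was 0.9998 ± 0.11 (SE), or 2-fold (1.68 to 2.38, adjusted p = 0.0106). It lay just short of the mark of 1, and without ISOL1 its adjusted p was 0.0521. The gene zgc:122979, which the study names dnajb5 and which is a heat shock protein 40 family gene, fell just outside the threshold. Its levels were 9.52, 9.66 and 9.50 in BIC, 9.03, 8.79 and 9.67 in BANIC, 8.36, 8.495 and 7.91 in BINIC, and 8.10, 7.13 and 8.10 in ISOL fish. ISOL2 lay lowest by a wide margin. The difference was 1.35 ± 0.19 (SE; adjusted p = 0.0505), and without ISOL2 it was 1.18 with an adjusted p of 0.0336.

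In the lower direction the only call was ces2b, a carboxylesterase gene. Carboxylesterases split ester bonds in lipids and foreign compounds. Its level was 5.68, 5.804 and 5.63 in BIC and 5.43, 5.57 and 5.66 in BANIC fish, against 6.67, 6.15 and 6.16 in BINIC and 6.28, 6.45 and 6.17 in ISOL fish. BINIC1 was the highest fish. This gave a log2 difference of -0.68 ± 0.09 (SE), or 1.60-fold lower (1.39 to 1.85, adjusted p = 0.0377). In 11 of the 12 fits with 1 array left out it did not pass, the exception being the fit without BINIC1 (adjusted p = 0.014), and the adjusted p reached 0.151 without BIC3.

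The other 7 genes of smallest p in the lower direction did not pass. The uncharacterized gene si:ch211-236d3.4 was at 7.60, 7.25 and 7.37 in BIC, 7.42, 7.28 and 7.41 in BANIC, 7.52, 7.80 and 7.99 in BINIC, and 8.06, 7.99 and 8.06 in ISOL fish. BIC1 lay above BINIC1, so the sides overlapped. Its difference was -0.51 ± 0.08 (SE; adjusted p = 0.0765). For rbm12bb, an RNA-binding motif protein gene, levels were 5.64, 5.43 and 5.38 in BIC, 5.12, 5.32 and 5.23 in BANIC, 5.81, 6.01 and 5.87 in BINIC, and 5.92, 5.51 and 5.76 in ISOL fish. Its difference was -0.46 ± 0.08 (SE; adjusted p = 0.108). A second, brighter probe set of the gene (means of 7.19 in attentive and 7.37 in other fish) gave -0.17 ± 0.07 (SE; adjusted p = 0.696). The G-protein regulator rgs2 was at 5.27, 5.12 and 4.95 in BIC and 4.87, 5.05 and 4.84 in BANIC fish, while the 6 other fish held between 5.29 and 5.37. Those 6 fish were almost equal and the attentive fish spread widely below them, with a difference of -0.30 ± 0.06 (SE; adjusted p = 0.235). The remaining 4, nansb (sialic acid synthesis), c8a (a complement component), itih3a.2 (an inter-alpha-trypsin inhibitor chain) and SI:CH211-191A16.2, differed by -0.35 to -0.26 with adjusted p from 0.235 to 0.282. Levels were low for SI:CH211-191A16.2 (means of 2.13 in attentive and 2.48 in other fish) and for nansb (3.26 and 3.52). A second, brighter probe set of SI:CH211-191A16.2 gave -0.15 ± 0.07 (SE; adjusted p = 0.742).

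**Figure D2:**
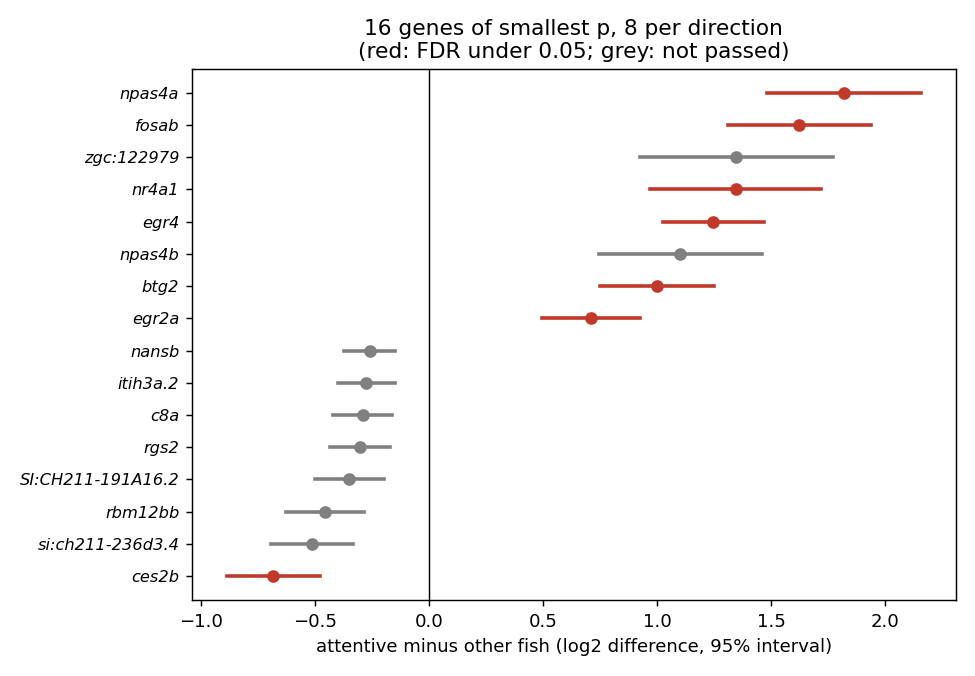
Difference of the attentive from the other fish (log2, 95% interval, limma) for the 16 genes of smallest p, 8 in each direction. Red marks an FDR under 0.05. The 8 genes that were higher run from 0.71 to 1.82, while the 8 that were lower run from -0.68 to -0.26.

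Taken as a family, the 15 AP-1 genes measured held 1 call, fosab (6.67%, where 0.0319% of all genes were called higher). By the looser count of genes in which all 6 attentive fish lay above all 6 others, it held 4 of 15 (26.7%), namely fosab, fosb, junba and jund, against 0.213% of all genes. The median log2 difference was 0.25, against -0.01 over all 18816 genes, and 14 of 15 members had a positive difference against 44% of all genes. The Fos paralog fosaa was at 7.08 ± 0.20 (SD, n = 6) in attentive and 6.67 ± 0.17 in other fish (difference 0.41, adjusted p = 0.277), with overlap. The related fosb was at 6.21 ± 0.26 and 5.44 ± 0.43 (0.77, adjusted p = 0.314), and junba at 6.07 ± 0.29 and 5.50 ± 0.21 (0.58, adjusted p = 0.235). For jund, a Jun family gene, the difference was 0.41 (adjusted p = 0.108), and for junbb it was 0.92 with a larger error (SE 0.22, adjusted p = 0.423). The founding Jun gene, jun, gave 0.02 ± 0.05 (SE; adjusted p = 0.970), with a 95% interval within 0.13 of 0 on both sides. The other members, atf3 (0.37), fosl1a (0.25), jdp2a (0.22), fosl2 (0.18), batf (0.04), batf3 (0.03), jdp2b (0.03) and fosl1b (-0.09), did not pass. The AP-1 median was 0.19 without BANIC3 and 0.35 without ISOL1.

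The 11 Egr, Nr4a and Npas4 genes held 4 calls (npas4a, nr4a1, egr4 and egr2a, or 36.4%). All 11 differences were positive, with a median of 0.49. In 8 of 11 (72.7%) the attentive fish lay above all others, adding npas4b, nr4a3, egr1 and egr3 to those called. Over all genes, 0.0319% were called higher and 0.213% lay higher without overlap. The receptor gene nr4a3 was at 6.66 ± 0.17 (SD, n = 6) in attentive and 6.17 ± 0.19 in other fish, a difference of 0.49 (adjusted p = 0.0765). For egr1, a widely used activity marker, the levels were 9.04 ± 0.18 and 8.56 ± 0.16, a difference of 0.48 (adjusted p = 0.146), and for egr3 7.68 ± 0.13 and 7.30 ± 0.19, a difference of 0.38 (adjusted p = 0.313). The 3 members whose sides overlapped were egr2b (0.31), nr4a2b (0.18) and nr4a2a (0.03). The number called in this list fell to 2 without BIC2, BIC3, BANIC1 or ISOL1. The study reported members of both lists from these samples, so the lists are not independent evidence of direction.

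**Figure D3:**
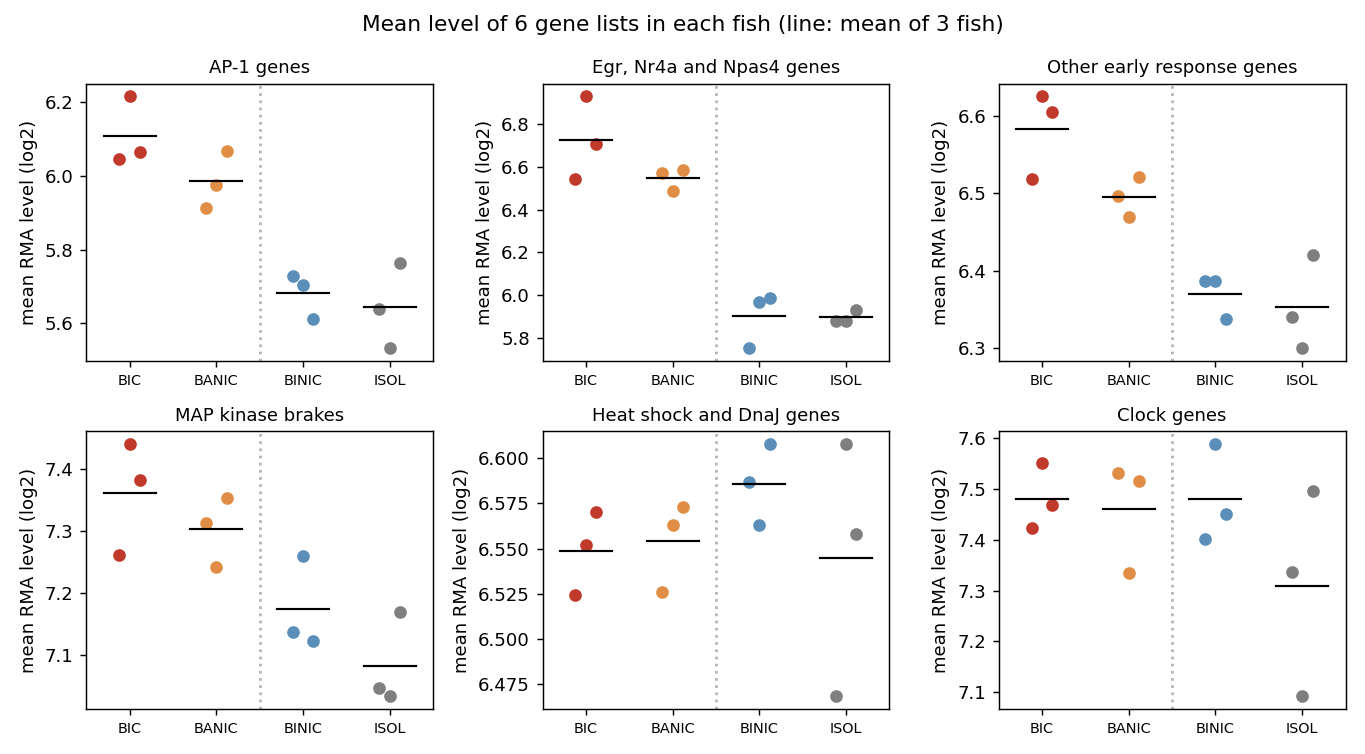
Mean level (RMA, log2) of 6 gene lists in each fish, with attentive groups left of the dotted line; points are fish and lines are means of 3. The AP-1, Egr/Nr4a/Npas4 and other early response panels show the attentive fish above all the others, the MAP kinase brake panel shows a small overlap, and the heat shock and clock panels show full overlap.

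Fish by fish, the mean of the AP-1 list was 5.91 to 6.22 in attentive fish and 5.53 to 5.76 in other fish. The mean of the Egr, Nr4a and Npas4 list was 6.49 to 6.93 and 5.75 to 5.99. The sides did not overlap in either list. Ranking the 12 fish within each of these 26 genes, BIC2 had the highest mean rank (10.4) and was the top fish in 16 genes. The mean rank of the other 5 attentive fish lay between 7.73 and 9.04, and that of the 6 other fish between 3.85 and 4.81. ISOL2 was the lowest fish in 9 of the 26 genes.

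Other early response genes were less uniform. Of 35 measured, 1 passed (btg2, 2.86%, against 0.0319% of all genes), 27 had a positive difference (77.1%, against 44%) and the median was 0.11. In 3 of 35 (8.57%, against 0.213%) the attentive fish lay above all others, namely in btg2, sik1 and ier2b. The kinase gene sik1, a cAMP-induced regulator of CREB coactivators, was at 8.24 ± 0.29 (SD, n = 6) and 7.35 ± 0.25, a difference of 0.89 (adjusted p = 0.0734). For ier2b the levels were 4.62 ± 0.20 and 4.02 ± 0.18, a difference of 0.61 (adjusted p = 0.0765). The polo-like kinase gene plk2b differed by 0.44 (adjusted p = 0.604).

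The MAP kinase brakes held no call among 20 genes, where 0.0319% of all genes were called higher. They had 16 positive differences (80%, against 44% of all genes) and a median of 0.11. In 3 genes (15%, against 0.213%) the attentive fish lay higher without overlap, namely dusp1, dusp5 and dusp7. The phosphatase gene dusp1 was at 6.61 ± 0.27 (SD, n = 6) in attentive and 5.73 ± 0.25 in other fish. Its difference was 0.88 ± 0.14 (SE; adjusted p = 0.0747). For dusp5 the levels were 8.21 ± 0.11 and 7.58 ± 0.27, a difference of 0.63 (adjusted p = 0.0747), with ISOL1 (7.08) far below the other fish. The difference was 0.62 for the receptor-kinase inhibitor spry4 (adjusted p = 0.235) and 0.34 for dusp6 (adjusted p = 0.473). Several genes near the threshold passed once 1 array was left out: sik1, dusp1, jund and si:ch211-236d3.4 without BIC1, sik1 and nr4a3 without ISOL3, si:ch211-236d3.4 without BINIC1, and rbm12bb without ISOL2.

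**Figure D4:**
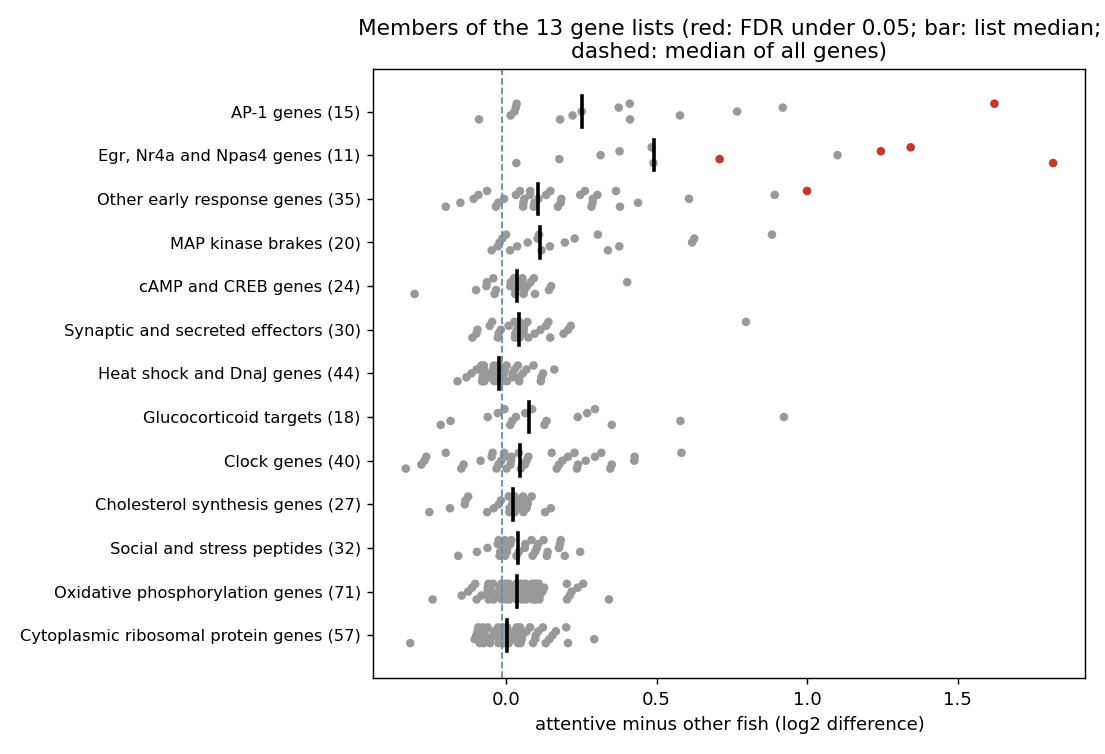
Difference of the attentive from the other fish (log2) for every measured member of the 13 gene lists, with the number of members in brackets. Red points have an FDR under 0.05, black bars are list medians, and the dashed line is the median of all genes (-0.01). The 6 red points, all above 0.7, lie in the 3 top lists.

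Lists further along the activity response, and lists for stress, metabolism and timing, held no call in either direction. Over all genes 0.0319% were called higher, so no call in lists of this size says little. Positive differences made up 73.3% of synaptic and secreted effectors, 72.2% of glucocorticoid targets and 70.8% of cAMP and CREB genes. They made up 62.5% to 66.7% of the clock, peptide, cholesterol and oxidative phosphorylation lists. In ribosomal protein genes the share was 50.9% and in heat shock genes 34.1%, against 44% of all genes. Among 24 cAMP and CREB genes the median was 0.04, and the differences ran from -0.30 (rgs2) to 0.40 (crema, a CREB-family gene, adjusted p = 0.604). Among 30 synaptic and secreted effectors, 20% were higher at an unadjusted p under 0.05, against 8.33% of the cAMP and CREB genes and 2.75% of all genes. The median of the effectors was 0.04. Their leading member was gpr3, a receptor that raises cAMP, at 7.96 ± 0.31 (SD, n = 6) and 7.17 ± 0.43 (0.80, adjusted p = 0.198), and bdnf, the neurotrophin gene, differed by 0.21 (adjusted p = 0.611). Among 32 social and stress peptide genes and receptors, 15.6% were higher at that unadjusted p, and in the lists that follow 0% to 12.3%. The median of the peptide list was 0.04 and the range -0.16 to 0.25, the last being pomcb. Vasotocin (avp, 0.11) and oxytocin (oxt, 0.04) lay within this range, as did crhb, a corticotropin-releasing hormone gene (0.18, adjusted p = 0.611).

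The 44 heat shock and DnaJ genes had a median of -0.02 and ran from -0.16 to 0.16. The gene listed there as dnajb5 is not the one the study calls by that name, and differed by -0.02. The study's gene, zgc:122979, was not in this list and differed by 1.35 (limma, adjusted p = 0.0505). Glucocorticoid targets had a median of 0.08 over 18 genes. Their largest difference, 0.92 in fkbp5, a glucocorticoid receptor co-chaperone (chosen after its value was seen), had an SE of 0.68 (adjusted p = 0.828). The list mean was lowest in ISOL2 (6.38), against 6.84 to 7.26 in the other 11 fish. Among 40 clock genes the median was 0.05 and the largest difference was 0.58 in nr1d1 (SE 0.40, adjusted p = 0.812). ISOL2 again had the lowest clock mean (7.09). For 27 cholesterol synthesis genes the median was 0.02, for 71 oxidative phosphorylation genes 0.04, and for 57 cytoplasmic ribosomal protein genes 0.0025. Between BINIC and ISOL the cholesterol list had a median difference of 0.30, with none of its members called.

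Within the attentive side, no probe set passed between fish that watched a fight and fish that watched a non-interacting pair (0% called), with 724 at an unadjusted p under 0.05. In the 6 called genes that were higher, the BIC mean was above the BANIC mean. The difference was 0.41 for egr4 (95% interval 0.10 to 0.72), 0.43 for npas4a (-0.05 to 0.91), 0.39 for fosab (-0.05 to 0.84), 0.33 for btg2 (-0.03 to 0.68), 0.54 for nr4a1 (0.01 to 1.07) and 0.18 for egr2a (-0.12 to 0.48). None passed (adjusted p = 0.9998 for each), and the upper bounds leave room for differences close to 1 in some of them.

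Within the other side, inattentive bystanders and isolated fish differed at 2 probe sets (0.00958%). These were ergic1, a secretory-pathway gene that was higher in BINIC (difference 0.48, adjusted p = 0.0485), and nudc, a dynein-associated chaperone gene that was lower (-0.66, adjusted p = 0.0163). With 1 array left out, this count was 0 in 6 of 12 fits and at most 24. In the called genes the BINIC mean differed from the ISOL mean by between -0.02 (nr4a1) and 0.42 (npas4a, 95% interval -0.06 to 0.90), and none passed.

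BANIC and BINIC fish met the same kind of stimulus and differed in attention. The contrast shares all 6 of its fish with the comparison of the 2 sides. It held no call (0%), with 1676 probe sets at an unadjusted p under 0.05 and a lowest adjusted p of 0.149. The 7 genes called between the 2 sides were chosen on these same fish, which do not overlap in them, so their values here are a description and no further support. The difference was 1.39 for npas4a (0.91 to 1.87), 1.28 for fosab (0.84 to 1.73), 1.08 for nr4a1 (0.55 to 1.61), 0.92 for egr4 (0.61 to 1.24), 0.72 for btg2 (0.37 to 1.07), 0.56 for egr2a (0.26 to 0.86) and -0.77 for ces2b (-1.06 to -0.48). For npas4b it was 1.49 (0.98 to 1.99) at the probe set used here, more than for any of the 7. That gene did not pass here (limma, adjusted p = 0.149). It was named for its small p between the sides on these same fish, so its value is likewise no further support.

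**Figure D5:**
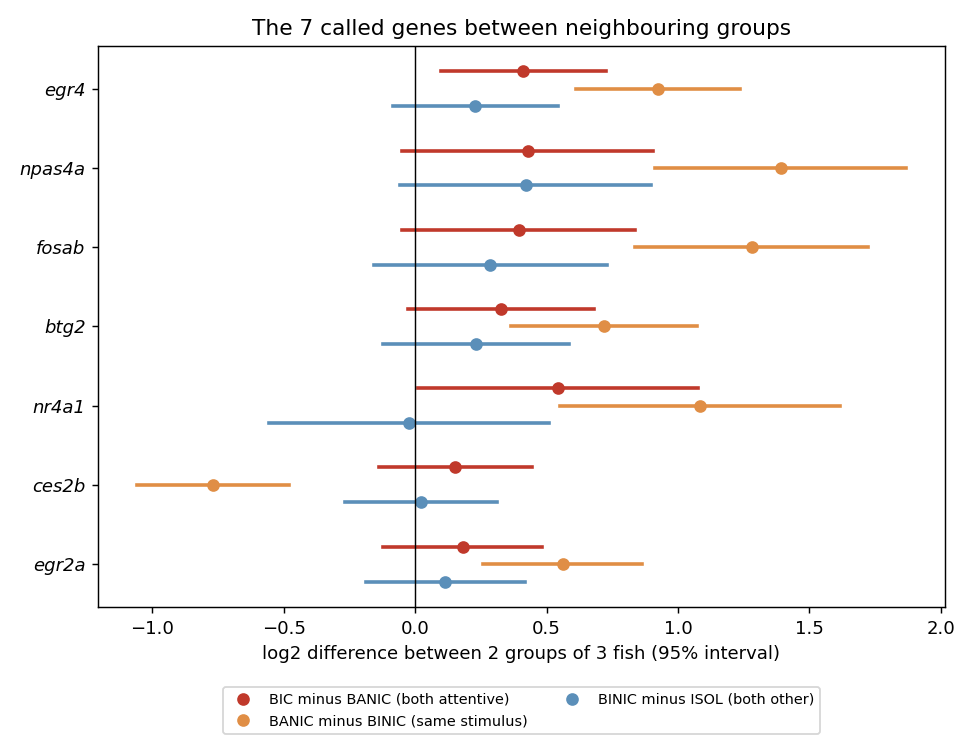
Difference between neighbouring groups (log2, 95% interval, 3 fish a group) for the 7 called genes. The genes were chosen for a gap between the attentive and the other fish, which the BANIC minus BINIC contrast (orange) shares and the other contrasts do not, so its values, from 0.56 to 1.39 in the 6 genes that were higher, are a description and no further support.

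Over all genes, 42 probe sets had every attentive fish above every other fish (0.201%) and 44 had every attentive fish below (0.211%). The 2 sets differed in their median difference and in how many members were in the gene lists. The median difference was 0.47 among those higher and -0.17 among those lower. Of the 42, 19 were in one of the gene lists and 12 were AP-1, Egr, Nr4a or Npas4 genes, while 1 of the 44 was in a list (rgs2). The lists were written with earlier results of these data known, so these counts are a description and no further support. Outside the lists, and chosen after their values were seen, the 42 also held rtn4rl2a, a Nogo-receptor family gene (0.56, adjusted p = 0.0783), and pim1, a kinase gene (0.58, adjusted p = 0.226).

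Markers of other tissues varied between fish. The summed linear level of 27 photoreceptor and retina genes was 470 to 1378 in attentive fish and 452 to 1171 in other fish. It fell into a low and a high set, with 1 attentive fish (BANIC1) and 4 other fish (BINIC1, BINIC3, ISOL2 and ISOL3) in the high one, and the list median was -0.23 with no call. The sum over 6 erythrocyte genes was 573 to 1425 and 464 to 1308 (median difference 0.28, no call). Skeletal muscle genes summed to 344 to 1541 and 368 to 478, the highest value being that of BANIC3. The remaining marker lists (radial glia, oligodendrocytes, microglia and leukocytes, endothelium, pineal, pituitary, and meninges) had medians between -0.08 and 0.02 with no call. The part of these tissues in the differences was not tested.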

How the data were processed

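RNA of each brain was run on 1 Affymetrix array (Zebrafish Gene 1.1 ST). The deposited values are log2 levels, made by the authors in oligo with RMA, that is, background correction, quantile normalization and median polish. Array strips and scan dates are not given in the sources used here. Of 23467 probe sets, 20871 were annotated (19790 to 1 gene, 1081 to several; the latter were tested but not named), and 2596 were not listed. Symbols were looked up in RefSeq tables by Entrez identifier, where 18243 of 18816 genes were found and 1 was renamed. Where a gene had several probe sets, that of highest mean stood for it in the lists.

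A linear model with 1 term per group was fitted with limma 3.58.1 in R 4.3.3, with moderated variances and Benjamini-Hochberg adjustment over 20871 probe sets. Called means an adjusted p under 0.05. No count depth exists for arrays, and their number limits the precision. Each array is a separate animal, and how tanks or test days were shared is not given in the sources used here. The fits were tested on simulated data with independent normal noise and planted changes. Of planted log2 changes of 1 and 0.5, 96% and 83% were recovered, with 9 false calls. Arrays that stand apart were not simulated, so these shares do not give the power in these fish. Genes were named by rule: the 8 of smallest p per direction (all calls were fewer), up to 4 per list, and every member of the AP-1 and Egr/Nr4a/Npas4 lists. Members and lists were chosen with earlier results of these data known. Alternatives tried were a 2-term model, 1 probe set per gene, filters on SD and on mean level (5), all probe sets, trended robust variances, array weights, median centring, a replicate block and leaving out arrays. Over whole profiles, fish of the same replicate number did not deviate together (mean correlation of deviations 0.004).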

Additional observations from a re-analysis of the deposited data

Results flagged for a closer look

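In 202 sets of 6 fish (the attentive and the other fish, for each named gene and each list mean), 12 held a single fish at the end of the range whose gap to its neighbor passed Dixon's 95% criterion, where chance gives about 5%. ISOL1 was low for dusp5 (7.08, against 7.58 to 7.82 in the other 5), for vgf, a secreted neuropeptide precursor (7.51, against 7.79 to 7.95), and for the heat shock and DnaJ list mean (6.47, against 6.56 to 6.61). ISOL2 was low for the cytoplasmic ribosomal protein list mean (7.18, against 7.26 to 7.28), and BINIC3 for the adenylate cyclase gene adcy8 (7.57, against 7.72 to 7.76).

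On the attentive side, BIC1 was low for ndufa1, a respiratory complex I gene (4.00, against 4.64 to 4.90), and high for batf3 (3.91, against 3.54 to 3.67). BIC3 was high for rplp2, a ribosomal stalk protein gene (6.45, against 6.14 to 6.22). BANIC1 was high for the photoreceptor and retina list mean (4.72, against 3.89 to 3.98) and for the pineal list mean (5.47, against 5.03 to 5.06), and low for the neuronal list mean (8.82, against 8.88 to 8.89). BANIC3 was high for the skeletal muscle list mean (5.675, against 4.18 to 4.51). None of these was a called gene. Of the 2596 probe sets with no listed gene, 0 were called by limma when all probe sets were tested together, with 155 at an unadjusted p under 0.05 and a lowest adjusted p of 0.0806.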

How the results depend on the processing

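The 7 calls of the attentive against the other fish became 11 with a 2-term model, 18 with 1 probe set per gene and the SD filter, 17 with the SD filter, 14 without dim probe sets, 12 with trended robust variances, 14 with array weights, and 35 without BIC1, BANIC3 and ISOL2, a choice made after seeing the data. All 7 were among the calls of the 2-term model, both SD filters, the trended variances and the weights, and 6 of the 7 in the fits without dim probe sets (egr2a was removed there) and without those 3 arrays (ces2b, adjusted p = 0.0997). With the replicate block, 4 of the 7 passed (egr4, fosab, npas4a and nr4a1). Leaving out 1 array gave 3 to 19 calls. With a log2 difference of at least 1, the count of 4 became 7 under either SD filter and under array weights, 17 without the 3 arrays, and 3 to 9 with 1 array left out. Sets without overlap, 86 in all 12 fish, numbered 124 to 197 with 1 array fewer and 480 without the 3 arrays, which have fewer fish to separate. BIC against BANIC gave 0 to 1 calls with 1 array left out and 1 without the 3 arrays. BINIC against ISOL, 2 calls, gave 0 under either SD filter and under the replicate block, 9 without dim probe sets, 9 with trended variances, 1 with weights, 100 without the 3 arrays and 0 to 24 with 1 array left out. BANIC against BINIC, 0 calls, gave 6 under either SD filter, 1 with trended variances and 0 to 2 with 1 array left out. The cause of these changes was not tested.

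No called gene changed sign under any alternative. Centring each array on its median moved the median difference of all probe sets from -0.011 to 0.005 and left the 7 calls as they were. Over whole profiles, same-numbered fish did not deviate together (correlation -0.136 to 0.186 over 18 pairs, and 3 of 12 fish correlated best with their own number). What the numbers stand for is not given. A shared strip or day that affected part of the genes was not tested. Among 16 genes of smallest p, zgc:122979 passed in 7, npas4b in 5 and si:ch211-236d3.4 in 5 of the 11 alternatives other than leaving out 1 array, and rbm12bb in 2 of the 9 that tested it. With 3 fish a group, a difference that did not pass is not shown to be absent.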
